A study of Drosophila melanogaster with 4 samples.

Results

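The pair-rule genes of Drosophila melanogaster were followed as a group of 9 listed members: eve, h, run, ftz, odd, opa, prd, slp1 and slp2. Members were taken as the array features that the platform annotation assigns to a single gene with one of these symbols. By that rule 7 of the 9 genes were measured, each by 2 features, which makes 14 of the 17328 single-gene features and 7 of 10804 genes. The gene h stands in the annotation under its current symbol hry and was matched through its NCBI gene ID, 38995. The genes run and slp1 were not analysed here.

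Pair-rule genes encode transcription factors that read the broad gap-gene domains of the early embryo and turn them into stripes with a period of a double segment. Primary members take their position from maternal and gap factors, and secondary members take it largely from the primary ones. Together they place the stripes of the segment polarity genes, and several are used again later in neurons, mesoderm or heart. Pole cells are the germ-line precursors; they form at the posterior pole and keep much of their own zygotic transcription silent while the soma forms its stripes.

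The cells were sorted by FACS on the germ-line marker EGFP-Vas from embryos of stages 8 to 14, that is, after the blastoderm stripes, and labelled by linear amplification from 100 ng of total RNA for 2-colour Agilent arrays. In the driven groups, females homozygous for nosGal4:VP16, a Gal4 activator under control of the germ-line gene nanos, were crossed to males with UAS-tao-1(D168A); EGFP-Vas or UAS-tao-1(D168D); EGFP-Vas. In the non-driven groups the females were yw and the males the same, so all embryos carried the marker and a kinase transgene, and what the mothers' genotype does and what the expressed kinase does cannot be told apart. The labels call D168A dominant negative and describe D168D as overexpression of tao-1. Each form has 1 array that carried the driven RNA in Cy3 (the Cy3-driven array) and 1 that carried it in Cy5 (the Cy5-driven array). This dye swap counts as 1 replicate, because the labels give 1 source of each RNA. Pairs of values are given in that order. All values below are log2 ratios of driven over non-driven cells, and ± gives how far the 2 dye orientations lie from their mean, which covers no biological variation. The files hold ratios and no levels, so whether a pair-rule transcript was present in the sorted cells at all, and whether the germ-line marker genes were abundant, cannot be read from them. In a bulk sample, fewer cells of a type and less RNA per cell cannot be told apart. Tao itself was higher by 2.91 with D168A and by 3.01 with D168D, the direction the labels give.

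A property of the arrays touches the values below and is given first. Over all single-gene features the ratio drifted with the feature number, the order of rows in the deposited table. The numbers were cut into equal consecutive stretches and the median taken in each. On the Cy3-driven D168D array it went from 0.42 in the first stretch to -0.43 in the last, and on the Cy5-driven D168A array from 0.41 to -0.17. The stretches stayed between -0.10 and 0.03 on the Cy3-driven D168A array and between -0.07 and 0.10 on the Cy5-driven D168D array. The pair-rule features are spread unevenly along this order. The lower-numbered feature of each gene, called feature 1 here, lies between numbers 317 and 6834, where these 2 drifting arrays stand above 0, and feature 2 lies between 8189 and 18144. The results are therefore also given after the running median of neighbouring features was subtracted from each array, called drift-removed. Ratios listed at 0 were kept at 0. Whether the feature number follows the place on the slide is not given in the sources used here.

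Agreement between the dye orientations of a form was poor, which bears on each form mean and each count over both arrays. Across the 10804 genes, which are not independent, the 2 arrays of D168A correlated at r = -0.10 as deposited and -0.12 drift-removed, and those of D168D at 0.01 and 0.14. Arrays of different forms with the driven RNA in the same dye correlated more. The Cy3-driven arrays had r = 0.36 as deposited and 0.43 drift-removed, and the Cy5-driven arrays 0.15 and 0.28. The drifting arrays, which differ in form and dye, had 0.30 and -0.11.

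**Figure D1:**
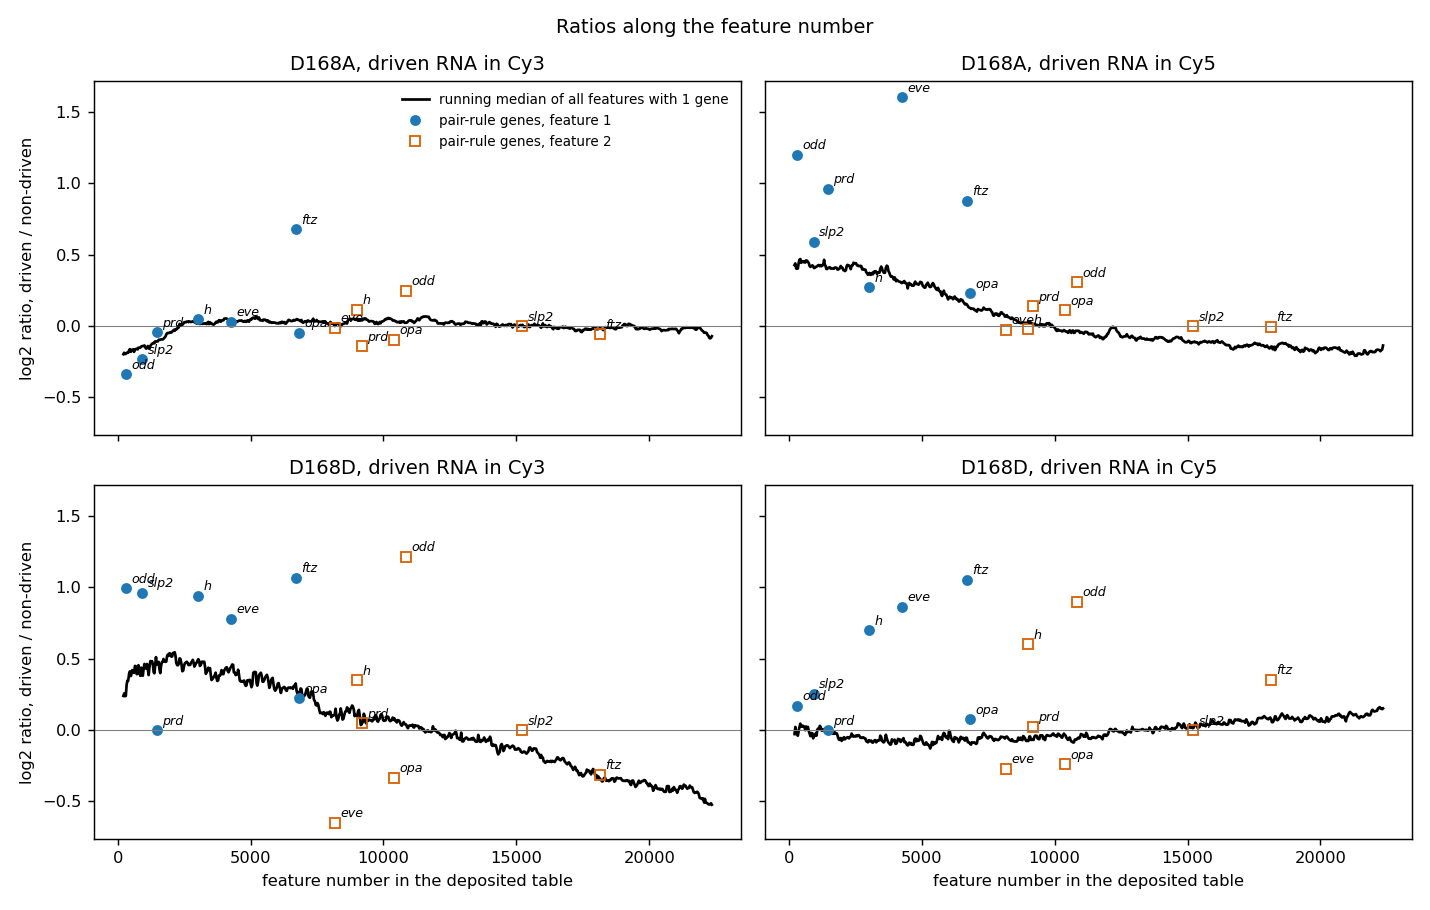
Log2 ratio of driven over non-driven RNA (y) against feature number (x) on each of the 4 arrays; the black line is the running median of all single-gene features, blue circles are feature 1 and orange squares feature 2 of the 7 pair-rule genes. The line falls across the Cy5-driven D168A array and the Cy3-driven D168D array, and the circles lie where it is high.

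With D168D, 6 of the 7 pair-rule genes were above 0 on both arrays, where 23.3% of all genes were. Their median was 0.30, against -0.01 over all genes. The highest were odd, h and ftz, at 1.76-fold, 1.57-fold and 1.45-fold. None of the 7 reached 2-fold on both arrays, a size that 0.157% of all genes reached, and h alone was at least 1.5-fold higher on both, as were 0.768% of all genes. Drift-removed, 5 of 7 were above 0 on both arrays (24.9% of all genes), the median was 0.22, and 0 of 7 reached 1.5-fold on both (0.592% of all genes). With a wider window for the running median, 4 of 7 were above 0 on both (24.7% of all genes), all but eve, opa and prd, the last of which stood at 0.02 and 0.01 as deposited with 1 feature listed at 0. With both features of a gene required above 0 on both arrays, h and odd were left, 2 of 7 where 8.35% of the 4814 genes with 2 features were. Genes of the gonadal soma list were above 0 on both D168D arrays in 5 of 6 measured genes as deposited and in 4 of 6 drift-removed. Their median was 0.22 under either. The list also holds wun and wun2, genes of germ cell migration, and both are among the 5, so it is not a pure marker set of these cells. Such counts were not particular to the gonadal soma list. Drift-removed, epidermal and tracheal genes were above 0 on both D168D arrays in 5 of 6 measured genes, from 2 as deposited. Their drift-removed median was 0.07. Mesoderm and muscle genes were so in 3 of 5 and nervous system genes in 3 of 6, drift-removed. The part of gonadal soma or other cells in the pair-rule values was not tested.

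With D168A the means of odd, h, ftz and slp2 were smaller than with D168D, and those of eve, prd and opa were larger. The D168A arrays also differed from each other. The form means of all 7 genes were above 0, as were those of 53.2% of all genes. Their median was 0.23 against 0.01 over all genes. But only eve, h and ftz were above 0 on both arrays, 3 of 7 where 24.4% of all genes were. The members' median was -0.05 on the Cy3-driven array and 0.43 on the Cy5-driven one, which drifts. No member reached 2-fold (0.148% of all genes) or 1.5-fold (0.5%) on both arrays. Drift-removed, ftz and odd were above 0 on both arrays, 2 of 7 against 21.8% of all genes, and the median was 0.14. The drift-removed form mean was above 0 in 6 of 7, all but h at -0.01, and in 49.3% of all genes. No member had both features above 0 on both D168A arrays, as 8.52% of the 4814 genes did.

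**Figure D2:**
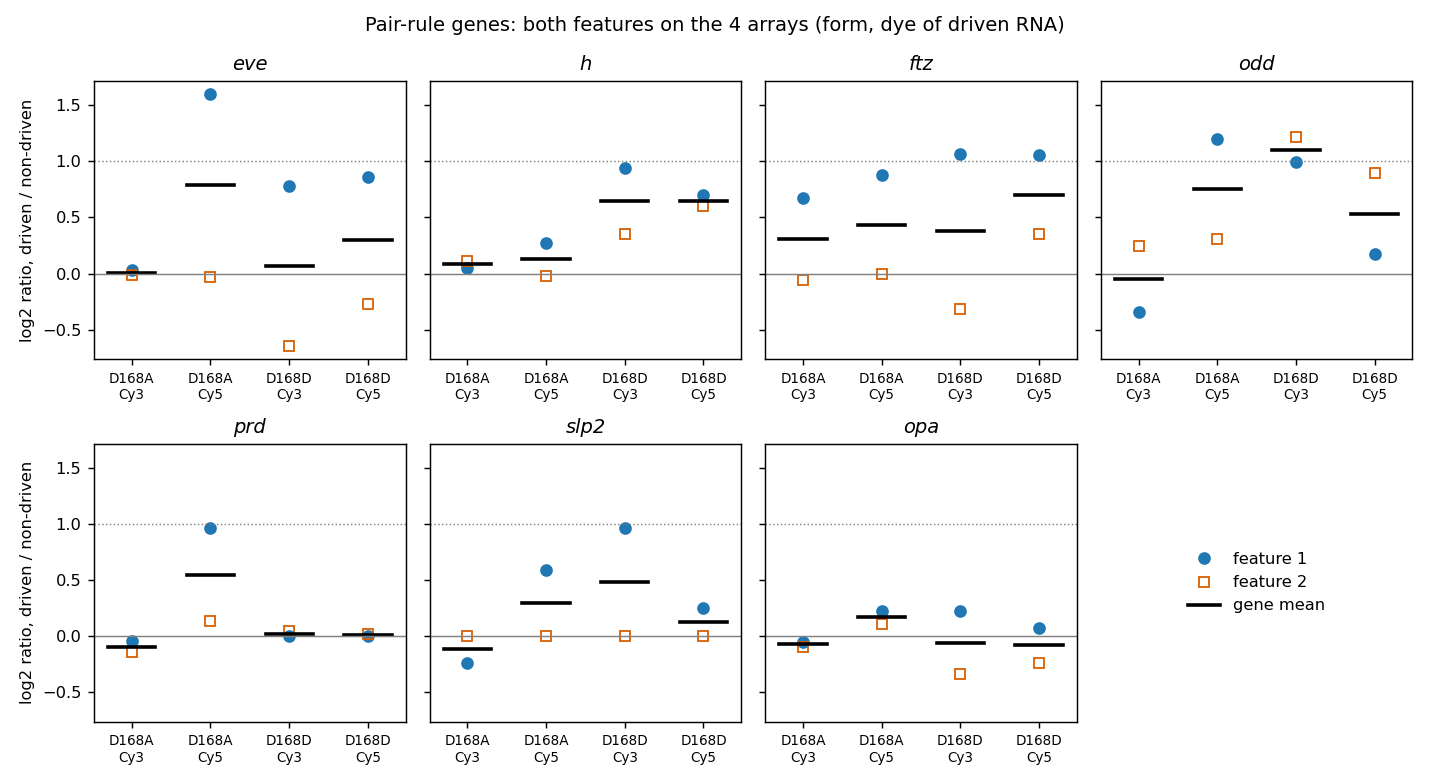
Log2 ratio (y) of each of the 7 measured pair-rule genes on the 4 arrays (x, form and dye of the driven RNA); blue circles and orange squares are the 2 features of a gene, black bars their mean, and the dotted line marks 2-fold. Both features of odd and h are above 0 on both D168D arrays, whereas feature 1 of eve and ftz lies apart from feature 2.

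Among the primary genes, even skipped (eve) encodes a homeodomain repressor and hairy (h) a basic helix-loop-helix repressor that recruits Groucho. On the D168A arrays eve was at 0.01 and 0.79, and on the D168D arrays at 0.06 and 0.30. The Cy5-driven D168A array thus stands above the other 3. The 2 features behind these means differed. Feature 1 of eve read 0.03 and 1.60 for D168A, then 0.78 and 0.86 for D168D. Feature 2 read -0.01 and -0.03, then -0.65 and -0.27. The form means of eve, 0.40 ± 0.39 and 0.18 ± 0.12, therefore average features that differ by 0.84 and 1.28, and they are not a reading of either. Drift-removed, eve was at 0.29 ± 0.31 and 0.06 ± 0.29, and was below 0 on the Cy3-driven D168D array, at -0.23.

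For h the values were 0.08 and 0.13 on the D168A arrays and 0.64 and 0.65 on the D168D arrays. The mean was 0.10 ± 0.02 with D168A and 0.65 ± 0.0019 with D168D, where h stood at rank 142 of 10804 genes. Its features gave 0.94 and 0.70 (feature 1) and 0.35 and 0.60 (feature 2) on the D168D arrays, all above 0. The near-identity of the 2 D168D arrays did not outlast removal of the drift, which left 0.35 and 0.72, a mean of 0.54 ± 0.19 and rank 167. With D168A the drift-removed mean was -0.01 ± 0.06.

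The gene fushi tarazu (ftz) encodes a homeodomain activator that works with the nuclear receptor Ftz-F1, and odd skipped (odd) a zinc finger repressor; both stand between the primary and secondary tiers. The ratios of ftz were 0.31 and 0.43 on the D168A arrays and 0.38 and 0.70 on the D168D arrays, above 0 on all 4. In this they joined eve and h, 3 of 7 members where 9.33% of all genes were above 0 on all 4 arrays. The form means of ftz were 0.37 ± 0.06 and 0.54 ± 0.16, and drift removal left them at 0.36 ± 0.07 and 0.54 ± 0.15. Drift-removed, ftz and odd were the members above 0 on all 4 arrays, 2 of 7 against 8.64% of all genes.

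The value of ftz rests on its feature 1. That feature read 0.68 and 0.88 for D168A, then 1.07 and 1.05 for D168D, and it was the 1 pair-rule feature of 14 that was at least 2-fold higher on both D168D arrays, which 0.225% of all features were. Feature 2 of ftz read -0.06 and -0.01 for D168A, then -0.31 and 0.35 for D168D. It lies far along the feature order (number 18144 against 6702), where the drift of the Cy3-driven D168D array was -0.34, and drift-removed it read 0.03 and 0.27 on the D168D arrays. Even so the features stayed apart, at 0.93 and 0.15 in the drift-removed D168D means.

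The gene odd had the highest ratio of the group with D168D. It was at 1.10 and 0.53 on the D168D arrays, a mean of 0.82 ± 0.28 and rank 61 of 10804 genes. Its features gave 0.99 and 0.17 (feature 1) and 1.21 and 0.90 (feature 2), so that here feature 2, which lies where the drift is near 0, had the higher values. Drift-removed, odd was at 0.96 and 0.58, a mean of 0.77 ± 0.19 and rank 55. With D168A the arrays disagreed, at -0.05 and 0.75, with feature 1 at -0.34 and 1.20 and feature 2 at 0.25 and 0.31. The drift-removed D168A values of odd were 0.04 and 0.56.

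Among the secondary genes, paired (prd) encodes a Pax-type factor with a paired domain and a homeodomain. It was at -0.09 and 0.55 on the D168A arrays and at 0.02 and 0.01 on the D168D arrays. The Cy5-driven D168A array stands apart, and feature 1 was at 0.96 there. On both D168D arrays feature 1 of prd is listed at 0. The form means were 0.23 ± 0.32 and 0.02 ± 0.01, and drift-removed 0.14 ± 0.20 and 0.03 ± 0.02.

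The forkhead gene sloppy paired 2 (slp2) lies beside its paralogue slp1 on chromosome arm 2L. It was at -0.12 and 0.30 on the D168A arrays and at 0.48 and 0.13 on the D168D arrays. Feature 2 of slp2 is listed at 0 on all 4 arrays, so these are averages of feature 1 and a 0. Feature 1 alone read -0.23 and 0.59 for D168A, then 0.96 and 0.25 for D168D. Drift-removed, feature 1 had a mean of 0.04 with D168A and 0.44 with D168D.

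Odd paired (opa), a zinc finger factor of the Zic family that is expressed broadly rather than in stripes during the switch to secondary patterning, had the mean over 4 arrays nearest to 0 in the group. It was at -0.07 and 0.17 on the D168A arrays and at -0.06 and -0.08 on the D168D arrays, the 1 member below 0 on both D168D arrays. Its D168D mean of -0.07 ± 0.01 again hid a difference between features, at 0.15 and -0.29.

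Disagreement between the features of a gene was wide in this group. The 7 genes had a median difference between their features of 0.47 with D168D, where the 4814 genes with 2 features had 0.21. The 7 include prd and slp2, whose D168D differences set a reading against a feature listed at 0. For slp2 this holds with D168A as well. Of the 7, eve and ftz differed by 1 or more on the log2 scale, as did 1.02% of the 4814. With D168A the medians were 0.18 and 0.13. Feature 1 had the higher ratio in all 7 pair-rule genes with D168A, and in 77.3% of all genes with 2 features. With D168D it was higher in 71.4% of the pair-rule genes and in 68.9% of the 4814. These values are as deposited and hold the drift. Drift-removed, the D168D means of features 1 and 2 were 0.63 and -0.51 for eve and 0.93 and 0.15 for ftz, so that ftz differed by less than 1. With D168A, feature 1 of h was then the lower, at -0.03 against 0.01. Drift-removed shares over all genes with 2 features were not computed.

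The contrast common to both forms asked whether driven and non-driven cells differed alike with D168A and D168D. It was tested with limma on the 2 form means. The highest estimate was that of odd, 0.59 (SE 0.132, adjusted p = 0.337), followed by ftz at 0.46 (SE 0.092, adjusted p = 0.333), h at 0.37 (adjusted p = 0.378) and eve at 0.29 (adjusted p = 0.366). The other members lay between -0.01 and 0.20, with adjusted p-values from 0.414 to 0.959. Thus 0 of 7 pair-rule genes passed, where 0.0555% of all genes did (6 of 10804). At an unadjusted threshold of 0.05, limma held 4 of the 7 (eve, h, ftz and odd), and 13.2% of all genes. Drift-removed, it held ftz and odd, and 6.53% of all genes; their estimates were 0.45 and 0.53, both with an adjusted p of 0.724. The 2 drifting arrays are of different forms, so each form mean holds 1 of them. Drift-removed, the number of genes passing limma went from 6 to 1.

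**Figure D3:**
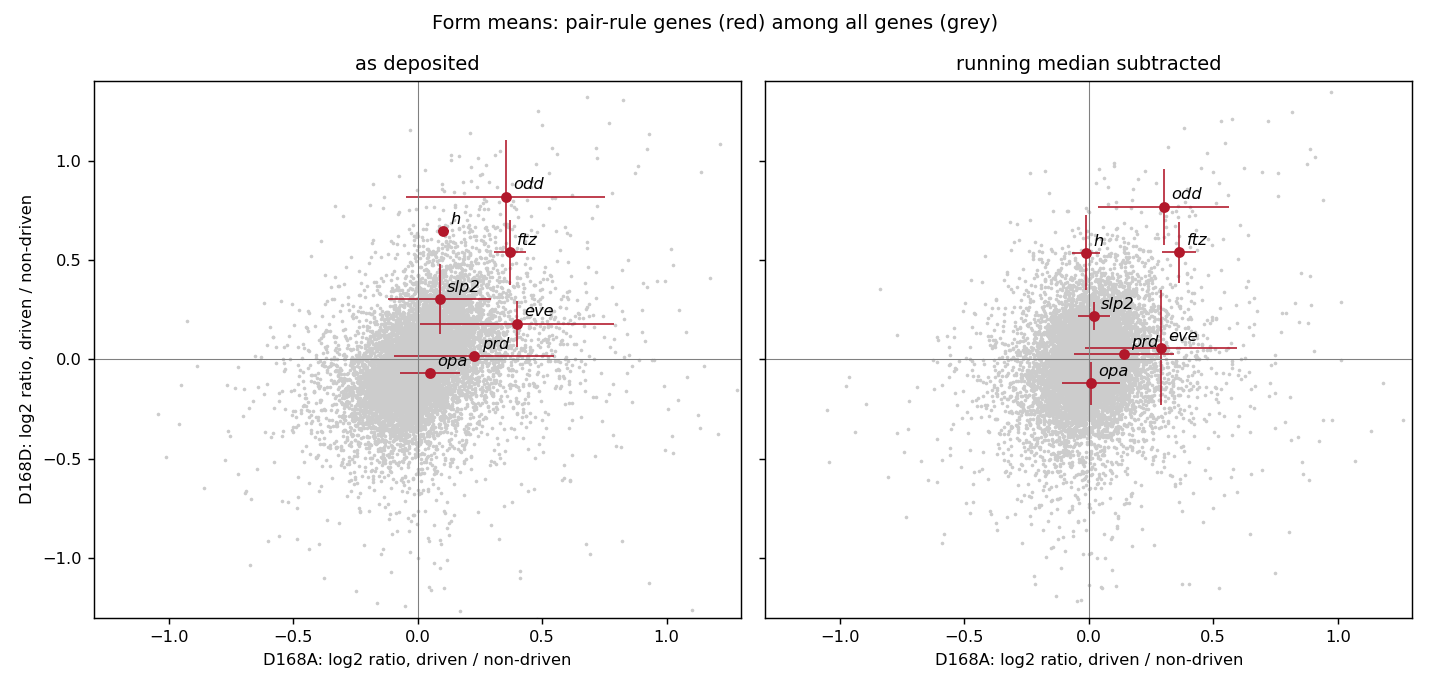
Mean log2 ratio with D168A (x) and with D168D (y) for all genes (grey) and the 7 pair-rule genes (red), as deposited on the left and with the running median subtracted on the right; bars span the 2 dye orientations of a form, and genes beyond the axes are not drawn. After subtraction h moves to 0 on the D168A axis, while ftz, odd, eve, prd and slp2 have means above 0 on both axes.

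The forms were then set against each other within each dye orientation, as D168A minus D168D. Of the 7 members, h and ftz had the same sign in both orientations, 2 of 7 where 39.3% of all genes had. Drift-removed, 6 of 7 had, all but prd, where 60.9% of all genes had. The gene h differed by -0.56 and -0.52, a mean of -0.54 ± 0.02, and ftz by -0.07 and -0.27. For odd the difference was -1.15 in the Cy3-driven arrays and 0.22 in the Cy5-driven ones as deposited, of opposite sign, and -0.92 and -0.01 drift-removed. No member reached 1.5-fold lower in both orientations, as 0.278% of all genes did. Drift-removed, h still differed by -0.30 and -0.79, while eve had 0.22 and 0.25. These differences have no test, since each form is 1 replicate.

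Related genes were read from lists, as deposited unless stated, and highest and lowest below refer to the mean over the 4 arrays. For the counts above 0 that follow, the shares over all genes were 24.4% on both D168A arrays and 23.3% on both D168D arrays. Of the maternal and gap regulators, which lie upstream, 17 of 21 were measured, and their medians were 0.04 with D168A and 0.08 with D168D; 5 and 9 of the 17 were above 0 on both arrays of the form. The terminal gap gene tll was the highest of them, at 1.04 ± 0.08 and 1.74 ± 0.10, and the 1 that was at least 2-fold higher on both D168D arrays. The lowest was osk, which organises germ plasm, at -0.44 ± 0.21 and 0.05 ± 0.0047. The segment polarity list holds downstream genes and also signalling components such as smo, por and wls. Of its genes 12 of 20 were measured, with medians of 0.05 and 0.21, and 2 and 5 of the 12 were above 0 on both arrays. Among them the engrailed paralogue inv, with 1 feature, was the highest (0.29 ± 0.74 and 0.55 ± 0.31). The lowest was gsb-n, a Pax-type gene (-0.07 ± 0.18 and -0.25 ± 0.21). Drift-removed, inv was at 0.16 and 0.37 and engrailed (en) at 0.06 and 0.91, and the list medians were 0.03 and 0.13. The 7 measured cofactors and partners had medians of -0.10 and 0.10, and 0 and 4 were above 0 on both arrays, with CtBP, a corepressor, lowest at -0.21 ± 0.24 and -0.13 ± 0.09 and Ten-m, a teneurin, highest at -0.11 ± 0.02 and 0.40 ± 0.12.

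Relatives of the pair-rule proteins by DNA-binding domain, 28 of 33 measured, had medians of -0.05 and -0.01, and 7 and 6 of the 28 were above 0 on both arrays. By the same mean they ranged from the Notch target E(spl)m3-HLH (-0.50 ± 0.08 and -0.15 ± 0.24) to zen, a homeodomain gene of dorsal blastoderm (0.56 ± 0.05 and 1.03 ± 0.17). In limma 0 genes of these 4 lists passed in either direction. As deposited, each measured gene beside a measured member on the chromosome had a lower D168A mean than that member. With D168D this also held, except for TER94 beside eve (0.23 against 0.18) and CG14659 beside opa (0.11 against -0.07). Drift-removed, TTLL4B beside slp2 (D168A) and CG12134 beside eve (D168D) stood above their member as well. The paralogue sob, next to odd, was at -0.20 with D168A and -0.12 with D168D, and the other neighbour of odd, Ugt36A1, at -0.15 and -0.44. The homeotic genes on either side of ftz, Scr and Antp, were at -0.02 and -0.15 and at 0.03 and 0.17. Beside h, the arrestin gene Arr2 was at 0.09 and -0.14, and its other neighbour was not analysed here.

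**Figure D4:**
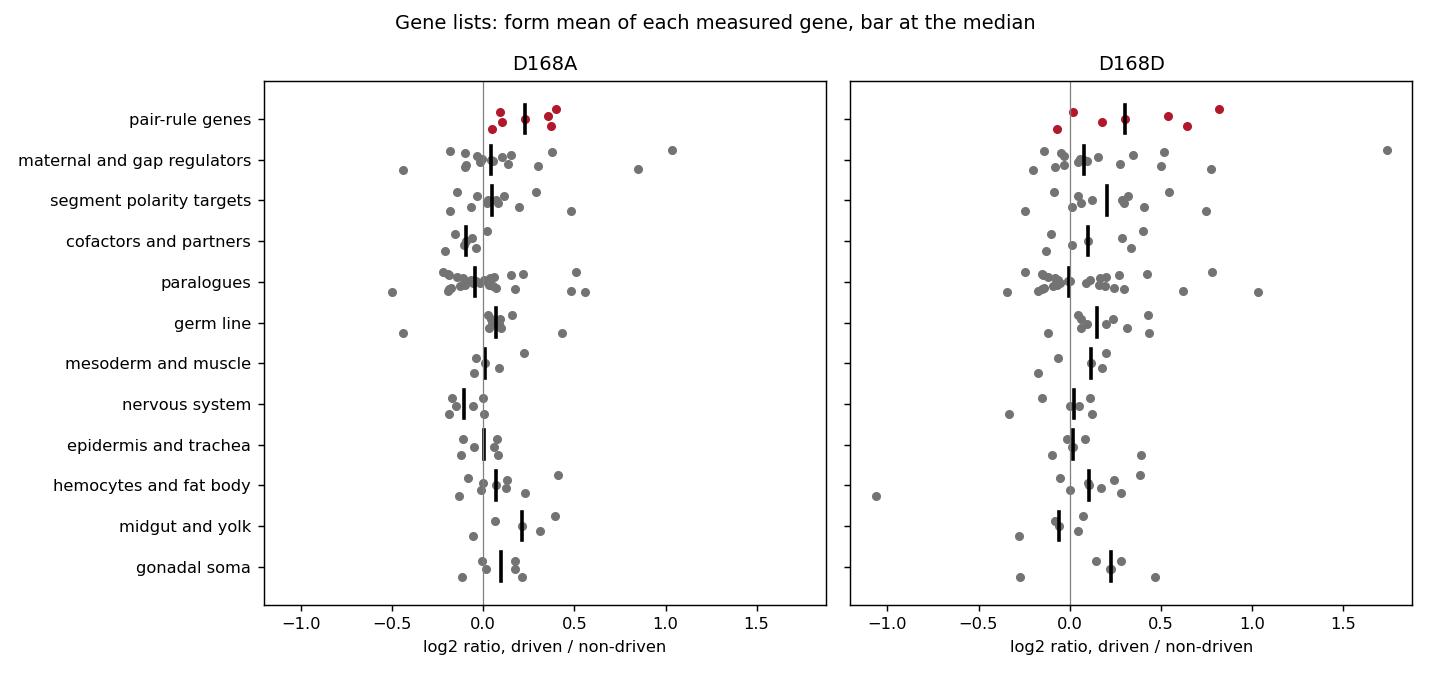
Mean log2 ratio (x) of each measured gene of the pair-rule group (red) and of the other lists (grey), by list (y), with D168A on the left and D168D on the right as deposited; black bars are list medians. The pair-rule medians are 0.23 and 0.30, and the highest single point is tll, at 1.74 with D168D.

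Markers of the germ line and of other cells that the sort could hold were read in the same way, as ratios, since no levels are available. The shares of all genes above 0 on both arrays are again 24.4% with D168A and 23.3% with D168D. The 10 measured germ-line genes of 13 had medians of 0.07 and 0.15, with the mitotic cyclin gene CycB highest (0.43 ± 0.12 and 0.43 ± 0.06) and osk again lowest, and 4 and 5 of the 10 were above 0 on both arrays of the form. The lists that follow each name their lowest and highest gene by that mean. The gene of the sorting marker, vas, was not analysed here. Mesoderm and muscle genes (5 of 10 measured) had medians of 0.01 and 0.12, with 0 and 2 above 0 on both arrays, from the mesodermal factor twi (-0.05 and -0.17) to the FGF receptor gene htl (0.08 and 0.18). Nervous system genes (6 of 10) had medians of -0.10 and 0.03, with 0 and 1 above 0 on both, from pros (-0.05 and -0.33) to the glial gene repo (0.0024 and 0.05). Epidermal and tracheal genes (6 of 8) had medians of 0.01 and 0.02, with 2 and 2 above 0 on both, from vvl (-0.11 and -0.10) to the E-cadherin gene shg (0.06 and 0.39). Drift-removed, 1 and 5 of these 6 were above 0 on both arrays.

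Hemocyte and fat body genes (9 of 10) had medians of 0.07 and 0.11, with 3 and 3 above 0 on both arrays, from the scavenger receptor gene Sr-CI (0.41 and -1.06) to the GATA factor gene srp (0.13 and 0.28). Midgut and yolk genes (5 of 5) had medians of 0.21 and -0.06, with 2 and 1 above 0 on both, from sens-2 (0.21 and -0.28) to the endodermal gene GATAe (0.31 and 0.05). Gonadal soma genes (6 of 10) had medians of 0.09 and 0.22, with 3 and 5 above 0 on both, from Six4 (-0.12 and -0.27) to wun2, a lipid phosphatase gene of germ cell migration (0.21 and 0.47). In limma 0 of the genes on these 7 lists passed. The part of other cells in the pair-rule ratios was not tested.

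For odd, the member with the highest mean over the 4 arrays, the genes with the most similar ratios were sought by Euclidean distance over the 4 arrays. They were CG14298 (distance 0.36), CG17807 (0.38), Cyp4d14 (0.42), the chloride channel gene SecCl (0.42) and emc, a helix-loop-helix gene (0.43). Drift-removed, the best placed of these 5 was SecCl at rank 10, and the others stood between ranks 33 and 96.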

How the data were processed

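Each array's deposited column holds the log10 ratio of every feature, which the authors obtained with Agilent Feature Extraction (version 7.1, according to the submitters' processing notes). The treatment of background and dyes is not given in the sources used here. As for the log base, it was read from the software and from the largest absolute value, 2. Without intensities, signal over background is unknown. All 4 columns were read as driven over non-driven with no sign turned: on the Cy3-driven arrays zeros are written as negative zeros, as a sign change leaves them, and each of the 314 unnamed features beyond 10-fold on every array changes sign with the dye, as a fixed colour difference would. Ratios were converted to log2 and averaged over the features of a gene, then over the 2 arrays of a form. Of 22575 features, 326 name several genes and 4921 none, and these were left out.

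The common contrast was fitted with limma 3.58.1 (R 4.3.3; lmFit and eBayes, 1 residual degree of freedom, two-sided) over 10804 genes, with Benjamini-Hochberg adjusted p under 0.05; its p-values rest on how the 2 forms differ. Nothing says that the RNAs came from repeated collections. Drift removal subtracted a centred running median over 301 features (1001 as an alternative), chosen after seeing the data. The fit was tested on simulated data in which the 2 form means were independent of each other. In the data they correlated at r = 0.38 as deposited and 0.22 drift-removed. The simulated data therefore do not cover effects that both forms share. The other alternatives were single dye orientations, centring, feature medians, zeros left out, a log2 reading, turned signs, another fold, arrays as replicates and each feature alone. Every measured member was named, and from each list the genes with the highest and lowest mean over the arrays (osk and gsb-n stand on more than 1 list); Tao and the neighbours were added as context. Members and lists were chosen with earlier results of these data known. Neighbours follow the RefSeq table of Release 6 plus ISO1 MT.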

Additional observations from a re-analysis of the deposited data

How the results depend on the processing

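Over the counts and medians, 65 alternative values stayed within the limits set (1.5 times for a count, the spread between arrays for a median) and 13 moved. Of the 7 genes, 0 were 2-fold changed on both D168D arrays; this was 1 at 1.5-fold (h), 1 where a single feature sufficed (ftz), and 0 to 1 on a single dye orientation. Between the forms the count was 0, and 0 to 1 on a single orientation. Genes above 0 on both arrays numbered 3 with D168A and 6 with D168D. A single orientation gave 3 to 7 with D168A. Requiring every feature above 0 left 0 and 2 (h and odd). With the Cy3-driven arrays' sign turned, the D168D count was 0. The D168A median, 0.23, was -0.047 to 0.43 on a single orientation. The D168D median, 0.30, was 0.30 to 0.38 on a single orientation, 0.54 without ratios listed at 0, 0.22 with the drift removed and 0.20 with a wider window. In limma 0 members passed under every alternative run, with 4 of 7 at an unadjusted 0.05 as deposited. The causes of these moves were not tested. No paired analysis was possible because each form is 1 replicate. That single replicate, and the unknown signal over background, limit every value.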
